A study of Mus musculus with 9 samples.

Results

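Becn1 and 9 other core genes of autophagy were examined in primary mouse microglia in which Chd8 or Tsc2 had been knocked down. The 10 genes, Becn1, Ulk1, Atg5, Atg7, Atg12, Atg16l1, Map1lc3a, Map1lc3b, Gabarap, and Gabarapl1, were picked by name as parts of the autophagy machinery, and the counts of all transcripts listed for each gene were summed in every library. They are 10 of the 54119 genes in the count table, and all 10 were among the 16273 genes that passed the filter on low counts. RNA-seq of total RNA covered 9 libraries of microglia from C57BL/6J mice, 3 treated with Control siRNA, 3 with Chd8 siRNA, and 3 with Tsc2 siRNA, and RNA was taken after 3 days of siRNA. The microglia of all groups were shaken off mixed glial cultures of embryonic whole brains, and the methods describe a replicate as a culture from a separate brain. The account of the RNA-seq gives 3 days of LPS for all 3 groups, whereas the methods for this assay give 3 days of siRNA without LPS being named, and the sample labels do not name it. The siRNA leaves part of its target mRNA in place, so the groups are models of reduced dosage and not of loss.

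In autophagy, a double membrane grows around cytoplasm or an organelle, closes into an autophagosome, and is delivered to the lysosome. The ULK1 kinase complex starts the process, the Beclin 1 lipid kinase complexes mark the membrane with phosphatidylinositol 3-phosphate, and ubiquitin-like conjugation through ATG7, ATG12, ATG5, and ATG16L1 attaches the ATG8 proteins, LC3 and GABARAP, to lipid. Microglia, the phagocytes of the brain, use part of the same machinery to attach LC3 to phagosomes that hold engulfed material. Tsc2 encodes tuberin, which restrains the mTORC1 kinase, an inhibitor of ULK1 and of autophagy, and Chd8 encodes a chromatin remodeler. The study examined Becn1 as one of a set of genes annotated with engulfment in phagocytosis, and the other 9 genes extend that question to the steps around Beclin 1.

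Levels are given as CPM, the estimated counts of a gene per 1000000 counts of the library, with the library size adjusted by edgeR's TMM factors. Total counts ranged from 16913448 to 33213801 per library, so that 3 counts, taken as the detection floor, were 0.0903 to 0.177 CPM. Chd8 was at 38.3 to 86.8 CPM in the Chd8 siRNA libraries and 93.6 to 117.9 CPM in the control libraries, a mean of 54.9% of control. Tsc2 was at 24.6 to 36.5 CPM in the Tsc2 siRNA libraries and 38.9 to 40.8 CPM in the control libraries, a mean of 76.7% of control. Neither target passed edgeR's quasi-likelihood test over all genes (adjusted p = 1.00 for both), and with the replicate number as a block Chd8 passed (adjusted p = 0.0078) and Tsc2 did not (adjusted p = 0.22). Of 12 microglial markers, 11 passed the filter, and their sum was 2685 to 3258 CPM in control, 2994 to 3495 CPM in Chd8, and 3226 to 3455 CPM in Tsc2 siRNA libraries. The markers were uneven, from Ptprc at 609.6 to 872.0 CPM over all libraries to 3 low ones. These were Cx3cr1 (6.25 to 13.4 CPM), P2ry12 (0.686 to 2.78 CPM), and Tmem119 (0 to 1.11 CPM). Markers of astrocytes summed to 14.6 to 106.4, 13.6 to 47.1, and 11.99 to 51.0 CPM, those of the oligodendrocyte lineage to 20.3 to 30.9, 20.9 to 29.2, and 13.1 to 26.9 CPM, and those of neurons to 4.56 to 19.3, 2.91 to 12.8, and 3.76 to 5.80 CPM in the same order of groups. Markers of fibroblasts and vessels summed to 14.4 to 53.8, 11.2 to 18.8, and 11.3 to 31.7 CPM, and of all these markers Cldn5 alone lay under the detection floor in every library. The filter was passed by 8 of 8 astrocyte, 5 of 8 oligodendrocyte-lineage, 4 of 6 neuronal, and 3 of 6 fibroblast and vessel markers. The part of other cell types in the results was not tested, and in bulk RNA fewer cells of a type and less RNA per cell cannot be told apart.

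None of the 10 genes changed past the threshold in either knockdown. A call required an FDR under 0.05 in edgeR's quasi-likelihood test and at least 1.5-fold, and 0 of 10 were called against 0.0% of all genes tested, in Chd8 siRNA as in Tsc2 siRNA microglia. DESeq2 called 0.0553% and 0.0369% of all genes and also 0 of 10. The adjusted p-values of all 10 genes were 1.00 in edgeR's quasi-likelihood test in both comparisons, which share the 3 control libraries. At an unadjusted p under 0.05, 1 of 10 genes, Atg7, stood out in the Chd8 comparison, where 3.82% of all genes did, and 0 of 10 in the Tsc2 comparison, where 2.61% did. The median log2 fold change of the 10 genes was 0.02 for Chd8 and −0.05 for Tsc2 siRNA, and that of all genes tested was −0.02 in both. With the replicate number as a block, 0.535% and 0.387% of all genes were called and still 0 of 10. The 95% interval of the fold change lay within 1.5-fold in either direction for 5 of the 10 genes in the Chd8 and 6 in the Tsc2 comparison, against 20.7% and 22.5% of all genes, so that changes larger than 1.5-fold lay outside the interval for those genes and inside it for the others. With the replicate number as a block these were 7 and 8 of the 10 genes, against 34.0% and 35.9% of all genes, since Gabarap and Gabarapl1 with Chd8 and Atg5 and Gabarapl1 with Tsc2 siRNA then joined them.

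**Figure D1:**
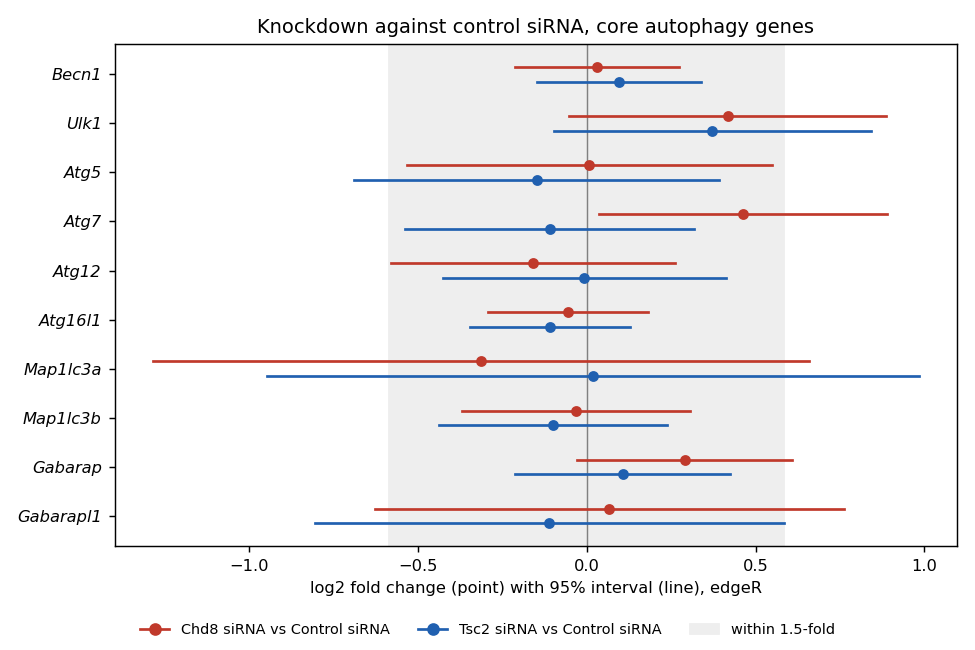
Log2 fold change of each of the 10 genes (points) with its 95% interval (lines) from edgeR's quasi-likelihood fit of all 9 libraries, for Chd8 siRNA (red) and Tsc2 siRNA (blue) against Control siRNA. The grey band marks changes within 1.5-fold, all points lie inside it, and among all intervals the one that leaves out 0 is that of Atg7 in the Chd8 comparison (1.03 to 1.85-fold).

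The levels differed far more between the genes than between the siRNA groups. For this, each transcript's CPM was divided by its length, and the sums are given as CPM per kb. Gabarap was highest with a mean of 89.0 CPM per kb over the 9 libraries, followed by Becn1 (47.2), Atg16l1 (36.5), Map1lc3b (25.2), Gabarapl1 (8.90), Atg12 (8.07), Map1lc3a (7.16), Atg5 (4.40), Atg7 (3.91), and Ulk1 (1.99 CPM per kb). The first 4 steps of this order held in 9 of 9 libraries with no overlap of the ranges. Gabarapl1 was above Atg12 in 6 of 9 libraries, Atg12 above Map1lc3a in 7, Map1lc3a above Atg5 in 7, and Atg5 above Atg7 in 5, so that these neighbours did not differ beyond the spread between libraries. Atg7 was above Ulk1 in 9 of 9 libraries, although the ranges overlapped. This order is that of CPM per kb only. Without the division by length, Atg16l1 (mean 88.4 CPM) was above Becn1 (57.1 CPM), and Atg12 (30.6 CPM) above Gabarapl1 (11.2 CPM). The division gives more weight to short transcripts, such as Becn1-211 (487 bases, 10.1% of the Becn1 counts) and Becn1-209 (463 bases, 6.99%). Across the 9 libraries, the CPM varied least for Becn1 and Atg16l1, with coefficients of variation of 4.81% and 5.29%, and most for Gabarapl1 and Map1lc3a, with 23.7% and 40.5%.

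**Figure D2:**
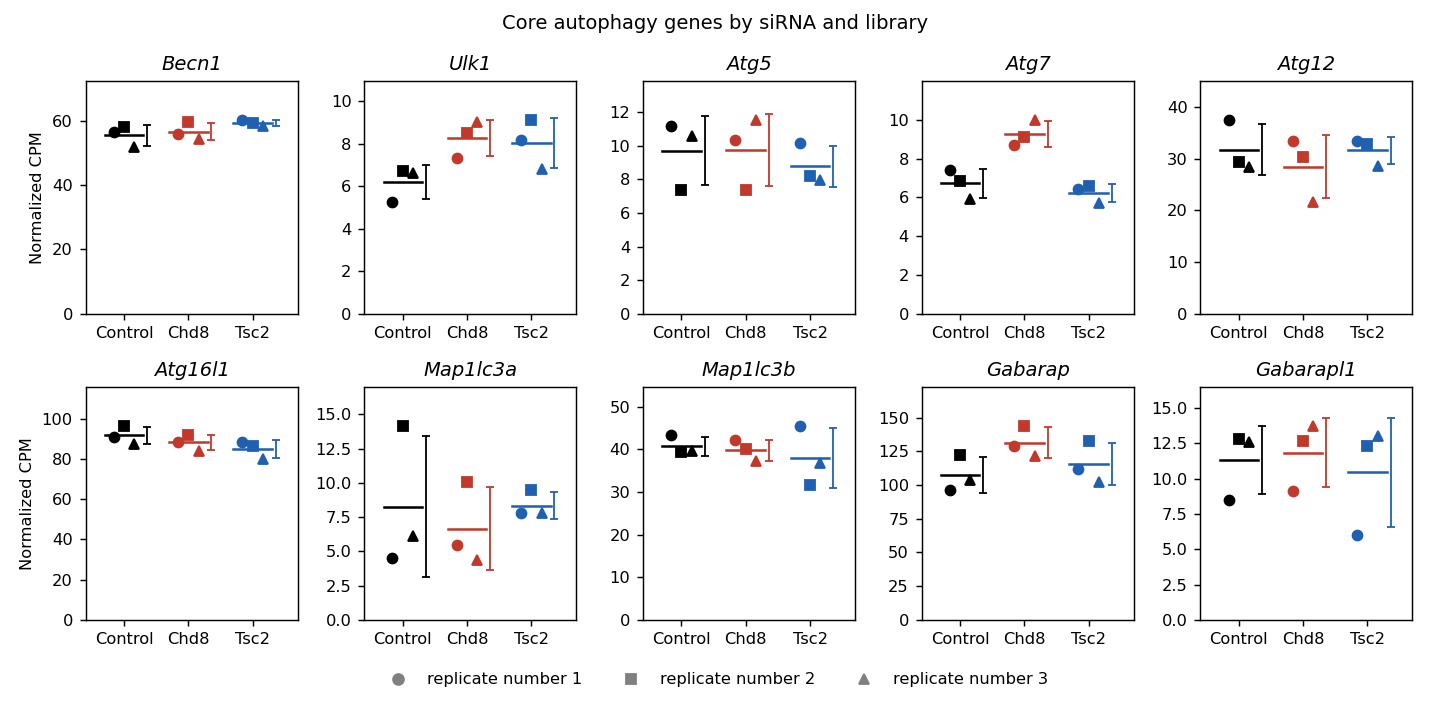
Level of each of the 10 genes in normalized CPM (vertical axes from 0, a scale for each gene) by siRNA group, with a symbol for each replicate number, horizontal lines at the group means, and bars of ±1 SD, n = 3 libraries per group. Becn1 sits between 51.8 and 60.2 CPM in all 9 libraries, Atg7 is above the control libraries in the 3 Chd8 siRNA libraries, and Map1lc3a is highest in replicate number 2 of every group.

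Becn1 (ENSMUSG00000035086, GRCm38 chr11:101285952-101302286, minus strand) encodes Beclin 1, the scaffold of the class III phosphatidylinositol 3-kinase complexes that act in autophagy and in phagosome maturation. It was at 56.5, 57.9, and 51.8 CPM in control siRNA libraries 1 to 3, at 55.7, 59.6, and 54.3 CPM with Chd8 siRNA, and at 60.2, 59.1, and 58.3 CPM with Tsc2 siRNA. Chd8 libraries 1 and 3 lay within the range of the control libraries and library 2 above it, and all 3 Tsc2 libraries lay just above the highest control library. The means were 55.4 ± 3.20, 56.6 ± 2.74, and 59.2 ± 0.96 CPM (SD, n = 3), respectively. The fold change was 1.02 (95% interval 0.863 to 1.21) with Chd8 siRNA and 1.07 (0.903 to 1.27) with Tsc2 siRNA, log2 values of 0.03 ± 0.11 and 0.10 ± 0.11 (SE). The 2-sided exact permutation test gave p = 0.7 and p = 0.1, of which the latter is the smallest that 3 against 3 libraries allow. Becn1 was thus among 2 of the 10 genes, with Ulk1, whose Tsc2 libraries were all above the control libraries, as were those of 3.87% of all genes, and 0 of 10 were below, as were 4.23%. Tsc2 and Chd8 siRNA libraries overlapped, with a fold change of 1.05 (0.885 to 1.24) between them.

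In the estimated counts, Becn1 was assigned largely to transcripts that are not annotated as protein coding. Of 17 listed Becn1 transcripts, 13 were tested and 2 had 0 counts in every library. Becn1-201, annotated for nonsense-mediated decay, took the largest mean share, 24.7% of the Becn1 counts (14.3 to 37.6% over the 9 libraries), and Becn1-205, the main protein-coding transcript, 16.4% (12.5 to 19.6%). Among their differences in the annotation, the one at which their reading frames part is in the fourth exon, where Becn1-205 has 59 bases (GRCm38 chr11:101296258-101296316, minus strand) and Becn1-201 reads on for 64 bases into the next intron (chr11:101296194-101296316). Both are shown 5′ to 3′ from the GENCODE transcripts because they hold that point, with the 64 added bases in capitals.
Becn1-205 exon 4: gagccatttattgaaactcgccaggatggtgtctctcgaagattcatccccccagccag
Becn1-201 exon 4: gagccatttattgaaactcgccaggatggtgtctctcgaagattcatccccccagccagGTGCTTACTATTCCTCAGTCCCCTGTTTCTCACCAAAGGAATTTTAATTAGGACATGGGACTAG
The added bases end in the annotated stop codon TAG, which leaves 105 codons before the stop in Becn1-201 against 448 in Becn1-205.

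By biotype, protein-coding transcripts took a mean of 18.8% of the Becn1 counts over the 9 libraries (15.04 to 21.7%), transcripts annotated for nonsense-mediated decay 43.7% (27.1 to 60.4%), and transcripts with a retained intron 29.5% (17.9 to 44.4%). With 935 to 1992 Becn1 counts per library, the 95% Wilson interval of the share of any of the 4 biotypes of Becn1 was ±1.18 to ±3.17 percentage points, for counting error only. The division of reads between overlapping transcripts of 1 gene is itself an uncertain estimate, and these intervals leave that error out. The share annotated for nonsense-mediated decay was 45.03, 44.2, and 48.9% in the control libraries, 47.9, 60.4, and 27.1% with Chd8 siRNA, and 45.3, 37.8, and 36.8% with Tsc2 siRNA. Chd8 siRNA libraries 2 and 3 thus held the highest and the lowest share of all 9, beyond their counting intervals, whereas the sum of all Becn1 transcripts in the same libraries was 59.6 and 54.3 CPM. The share of retained introns mirrored this, at 17.9 and 44.4% in those libraries and 25.4 to 26.6% in the control libraries. The protein-coding share was 19.2 ± 3.08% in control, 17.6 ± 3.55% in Chd8, and 19.6 ± 1.45% in Tsc2 siRNA libraries (SD, n = 3). The 6 comparisons of these 3 shares with control gave an adjusted p of 0.9 each in the exact permutation test, with the lowest unadjusted p at 0.3, and 3 against 3 libraries allow none below 0.1. The remaining share, that of processed transcripts, was 7.76 to 8.97% in control, 5.55 to 7.58% in Chd8, and 7.75 to 9.67% in Tsc2 siRNA libraries. Here all Chd8 libraries lay below the other libraries, with a mean of 6.65 ± 1.02% against 8.49 ± 0.65% in control (SD, n = 3; 2-sided exact permutation p = 0.1, the smallest possible). This share was compared outside the 6 tests and after its values were seen.

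**Figure D3:**
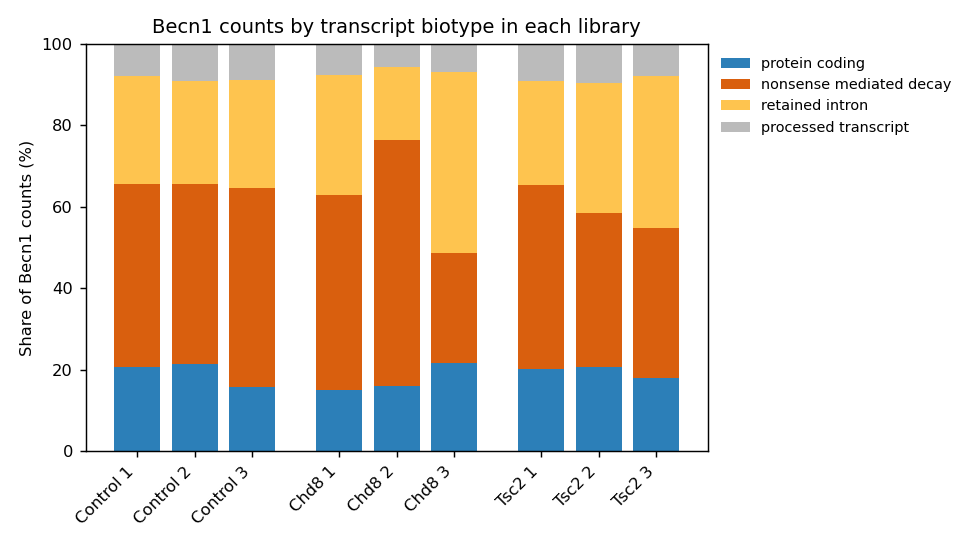
Share of the Becn1 counts (vertical axis, %) in transcripts annotated as protein coding (blue), nonsense-mediated decay (orange), retained intron (yellow), and processed transcript (grey) in each of the 9 libraries. The protein-coding share stays between 15.04 and 21.7%, while the decay share is 60.4% in Chd8 siRNA library 2 and 27.1% in Chd8 siRNA library 3.

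The 13 Becn1 transcripts tested were the 2 named above with Becn1-214 and Becn1-215, both annotated for decay, the retained-intron transcripts Becn1-202, Becn1-207, Becn1-208, Becn1-210, and Becn1-211, the processed transcripts Becn1-206 and Becn1-209, and the protein-coding Becn1-212 and Becn1-217. Becn1-201 was at 13.2 to 17.2 CPM in control, 7.89 to 22.7 CPM in Chd8, and 11.3 to 12.5 CPM in Tsc2 siRNA libraries, and Becn1-205 at 6.56 to 11.4, 7.10 to 9.43, and 9.46 to 11.02 CPM. The Tsc2 libraries lay below the control libraries for Becn1-201, while for Becn1-205 all groups overlapped with control. Becn1-202, with a retained intron, was at 0 to 3.02 CPM in control and 5.18 to 10.8 CPM in Tsc2 siRNA libraries, with a log2 fold change of 1.99 ± 1.63 (SE). Summing the protein-coding transcripts alone turned the log2 fold change of Becn1 with Chd8 siRNA from 0.03 to −0.14, and keeping Becn1-201 alone turned that with Tsc2 siRNA from 0.10 to −0.29, none of them called. edgeR's biological coefficient of variation was 0.828 in the fit of single transcripts, against 0.408 in that of genes. Single transcripts were thus less precise than genes in general, and no such value was taken for Becn1 alone.

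Among all genes tested, the 5 whose log2 CPM followed that of Becn1 most closely over the 9 libraries were Psmd4, a ubiquitin receptor of the proteasome, Rnf25, a ubiquitin ligase, Cct7, a chaperonin subunit, the gene 2900097C17Rik, and Stat5b, a transcription factor of cytokine signalling. Their Pearson r with Becn1 was 0.97, 0.95, 0.94, 0.93, and 0.93, and 12 genes had an r above 0.9. The other 9 autophagy genes had an r with Becn1 between −0.61 (Atg5) and 0.59 (Map1lc3a), so none of them was among the closest. These are descriptions over 9 libraries that share their 3 siRNA groups and their 3 replicate numbers.

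Ulk1 (ENSMUSG00000029512, GRCm38 chr5:110784488-110810097, minus strand) encodes the kinase that starts autophagy and that mTORC1 phosphorylates. It was at 5.28, 6.71, and 6.61 CPM in control libraries 1 to 3, at 7.34, 8.48, and 9.01 CPM with Chd8 siRNA, and at 8.15, 9.12, and 6.79 CPM with Tsc2 siRNA. All libraries of both knockdowns lay above the highest control library, by the smallest margin in Tsc2 library 3. The fold change was 1.34 (95% interval 0.965 to 1.85) with Chd8 and 1.29 (0.935 to 1.79) with Tsc2 siRNA, neither of which passed the test, and Tsc2 against Chd8 siRNA gave 0.969 (0.701 to 1.34). With Ulk1 and Atg7, 2 of the 10 genes were above control in all Chd8 siRNA libraries, as were 4.17% of all genes, and 0 of 10 were below, as were 4.92%. Only 109 to 232 Ulk1 counts were found per library, and Ulk1-201, which is protein coding, held 71.2% of them (55.1 to 95.2%). Per length, Ulk1 was at 1.70 ± 0.32, 1.84 ± 0.12, and 2.42 ± 0.50 CPM per kb in control, Chd8, and Tsc2 siRNA libraries (SD, n = 3). The order of the knockdowns thus depended on the scale, and per length the Chd8 mean lay within the SD of control.

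Of the 4 conjugation genes among the 10, Atg7 had the largest fold change with Chd8 siRNA. Atg7 (ENSMUSG00000030314, GRCm38 chr6:114643097-114860614, plus strand) encodes the enzyme that activates both ATG12 and the ATG8 proteins. It was at 7.39, 6.83, and 5.92 CPM in control libraries 1 to 3, at 8.68, 9.12, and 9.996 CPM with Chd8 siRNA, and at 6.40, 6.57, and 5.71 CPM with Tsc2 siRNA. The Chd8 libraries were above all others, and the Tsc2 libraries overlapped with control. The fold change was 1.38 (95% interval 1.03 to 1.85) with Chd8 siRNA, with an unadjusted p of 0.036 and an adjusted p of 1.00 in edgeR, and 0.927 (0.689 to 1.25) with Tsc2 siRNA. Tsc2 against Chd8 siRNA gave a fold change of 0.672 (0.4999 to 0.903), with an unadjusted p of 0.013 and an adjusted p of 1.00 in edgeR. Atg7 was the 1 gene of 10 whose groups did not overlap in that comparison, where 8.44% of all genes did not. It was also the 1 gene of 10 at an unadjusted p under 0.05, against 3.1% of all genes, and 0 of 10 were called, against 0.0%. Atg7 rested on 111 to 259 counts per library, of which Atg7-201 held 42.5% (20.5 to 60.5%). Protein-coding transcripts held 84.9 to 90.9% of the Atg7 counts in control, 95.2 to 96.5% in Chd8, and 92.9 to 100% in Tsc2 siRNA libraries.

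Atg12, Atg5, and Atg16l1 form the complex that places the ATG8 proteins on the membrane. Atg12 (ENSMUSG00000032905), a ubiquitin-like protein that is joined to ATG5, was at 37.5, 29.4, and 28.4 CPM in control, 33.5, 30.3, and 21.6 CPM in Chd8, and 33.5, 32.8, and 28.6 CPM in Tsc2 siRNA libraries. Atg5 (ENSMUSG00000038160, GRCm38 chr10:44268358-44364291, plus strand), its acceptor, was at 11.2, 7.39, and 10.6 CPM in control, 10.4, 7.40, and 11.6 CPM in Chd8, and 10.2, 8.22, and 7.96 CPM in Tsc2 siRNA libraries. The groups overlapped for both genes. Fold changes were 0.895 (95% interval 0.669 to 1.198) and 0.995 (0.744 to 1.33) for Atg12 and 1.01 (0.692 to 1.46) and 0.902 (0.621 to 1.31) for Atg5 with Chd8 and Tsc2 siRNA. Atg16l1 (ENSMUSG00000026289, GRCm38 chr1:87755870-87792428, plus strand), which directs the complex to membranes, was at 91.1, 96.5, and 87.7 CPM in control, 88.6, 92.1, and 84.3 CPM in Chd8, and 88.6, 86.4, and 80.3 CPM in Tsc2 siRNA libraries. The groups overlapped, and the fold changes of 0.962 (0.816 to 1.13) and 0.927 (0.786 to 1.09) had the narrowest intervals of the 10 genes. In each replicate number, Atg16l1 was lower in both knockdown libraries than in the control library. With that number as a block, the log2 fold changes were −0.06 ± 0.08 with Chd8 and −0.11 ± 0.08 with Tsc2 siRNA (SE), neither of which was called. Of the Atg16l1 counts, Atg16l1-201 held 52.1% (44.3 to 55.9%). Protein-coding transcripts held 49.1 to 53.5% in control, 55.5 to 57.1% in Chd8, and 46.0 to 56.9% in Tsc2 siRNA libraries. Transcripts with a retained intron held the rest. The Chd8 libraries were thus all above the control libraries (unadjusted 2-sided exact permutation p = 0.1, the smallest possible). By contrast, the single protein-coding transcripts Atg5-201 and Atg12-201 held 97.7% and 88.0% of the counts of their genes.

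Among the ATG8 genes, Gabarap was the highest and had the largest difference in mean CPM. Gabarap (ENSMUSG00000018567, GRCm38 chr11:69991143-69994951, plus strand), whose product binds the ULK1 complex and acts late in autophagosome formation, was at 96.6, 122.5, and 103.9 CPM in control, 129.3, 143.9, and 121.5 CPM in Chd8, and 112.0, 133.0, and 102.5 CPM in Tsc2 siRNA libraries. In each replicate number the Chd8 library was above the control library, although Chd8 library 3 was below control library 2, so that the groups overlapped. The fold change was 1.22 (95% interval 0.980 to 1.53) with Chd8 and 1.08 (0.863 to 1.34) with Tsc2 siRNA. With the replicate number as a block, the log2 fold change with Chd8 siRNA was 0.29 ± 0.08 (SE) with an adjusted p of 0.10 in edgeR, which did not pass the test. DESeq2 with the block gave an adjusted p of 0.012, past the FDR but under the 1.5-fold that a call required. Gabarap-201 held 98.3% of the Gabarap counts (97.4 to 99.3%).

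Gabarapl1 (ENSMUSG00000030161, GRCm38 chr6:129533160-129542346, plus strand), a close relative of Gabarap, was at 8.52, 12.8, and 12.6 CPM in control, 9.11, 12.7, and 13.7 CPM in Chd8, and 6.02, 12.3, and 13.0 CPM in Tsc2 siRNA libraries. Replicate number 1 was the lowest in all 3 groups, and the groups overlapped. The fold changes were 1.05 (95% interval 0.647 to 1.69) and 0.926 (0.572 to 1.498), and Gabarapl1-201 held 79.7% of the counts (70.5 to 91.6%). Map1lc3a (ENSMUSG00000027602, GRCm38 chr2:155276297-155278073, plus strand), which encodes the LC3A form, was at 4.53, 14.2, and 6.14 CPM in control, 5.49, 10.1, and 4.40 CPM in Chd8, and 7.77, 9.48, and 7.79 CPM in Tsc2 siRNA libraries. Here replicate number 2 was the highest in all 3 groups. The fold changes of 0.805 (0.410 to 1.58) and 1.01 (0.519 to 1.98) had the widest intervals of the 10 genes. Map1lc3a-201 held 92.0% of the counts, and the protein-coding share was 98.0 to 100% in control, 82.1 to 96.7% in Chd8, and 72.1 to 95.3% in Tsc2 siRNA libraries. As for Atg7, though in the opposite direction, this share did not overlap between control and either knockdown. The unadjusted 2-sided exact permutation test gave p = 0.1 for each, the smallest possible, at 107 to 266 Map1lc3a counts per library. Of the protein-coding shares of the other genes, that of Atg16l1 was apart from control with Chd8 siRNA, and the rest overlapped with control. How often such shares stand apart among all genes was not counted.

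Map1lc3b (ENSMUSG00000031812, GRCm38 chr8:121590361-121598760, plus strand) encodes LC3B, the form most used as a marker of autophagosomes. It was at 43.3, 39.3, and 39.6 CPM in control, 42.2, 40.0, and 37.2 CPM in Chd8, and 45.5, 31.5, and 36.9 CPM in Tsc2 siRNA libraries. The groups overlapped, and Tsc2 library 2 was the lowest of all. The fold changes were 0.977 (95% interval 0.774 to 1.24) and 0.932 (0.738 to 1.18). Map1lc3b-201 held 52.6% of the counts (42.0 to 57.6%), and this transcript was at 18.03 ± 2.41 CPM in Tsc2 and 21.9 ± 1.01 CPM in control siRNA libraries (SD, n = 3), with a log2 difference of −0.28 ± 0.16 (SE) that did not pass the test.

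Map1lc3b and Gabarap have similar copies elsewhere in the genome, those of Map1lc3b being the closer ones, and for the other 8 genes no copy with at least 85% identity over 250 bases was found among the annotated transcripts. There were 5 processed pseudogenes of Map1lc3b, 93.9 to 99.7% identical to Map1lc3b-201 over the bases aligned. The nearest, Gm6055 on chromosome 14, differs from Map1lc3b-201 at 1 of the 378 bases aligned, the substitution G370A counted from the first base of Map1lc3b-201, and the coding bases 340 to 400 around it are shown with that base in capitals because that base is the one difference of the pair within the alignment, which covers bases 165 to 542 of the 2532 bases of Map1lc3b-201.
Map1lc3b-201: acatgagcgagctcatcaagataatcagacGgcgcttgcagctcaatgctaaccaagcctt
Gm6055: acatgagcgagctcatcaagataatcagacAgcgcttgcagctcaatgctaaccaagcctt
The 5 pseudogenes together were assigned 0 to 2 counts per library, at most 0.195% of the Map1lc3b counts, which ranged from 627 to 1259. The pseudogene Gm45678, 88.7% identical to Gabarap-201 over 293 bases, had 0 counts in every library. On the opposite strand, exons of 3 genes share bases with those of Becn1 (Cntd1, mean 0.33 CPM), Map1lc3b (Zcchc14, 8.97 CPM), and Gabarapl1 (1700101I11Rik, 0.0934 CPM), and whether the quantification used the strand is not given in the sources used here.

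Over the single transcripts of the 10 genes, 77 were listed, 42 were tested, and 10 had 0 counts in every library. In edgeR, 0 of 42 were called in either comparison, against 0.0% of all 41633 transcripts tested, and at an unadjusted p under 0.05 there were 0 of 42 with Chd8 siRNA (3.32% of all transcripts) and 1 of 42 with Tsc2 siRNA (2.83%). That transcript, Map1lc3a-203, a processed transcript, was at 0 to 0.310 CPM in control and 0.455 to 2.15 CPM in Tsc2 siRNA libraries. DESeq2 called 0.468% and 0.392% of all transcripts and also 0 of 42. The groups did not overlap for 1 of 42 with Chd8 siRNA, Becn1-208, against 8.77% of all transcripts, and for 5 of 42 with Tsc2 siRNA, against 8.39%. Those 5 were Becn1-201 and Map1lc3b-201, which were lower, and Becn1-202, Map1lc3a-203, and Map1lc3b-205, which were higher, in Tsc2 siRNA libraries.

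The replicate number accounted for more of the spread than the siRNA for most of the genes. Across all genes tested, the median share of the variance of log2 CPM between libraries that went with the siRNA was 18.04%, and that with the replicate number 41.9%. With 9 libraries, a factor of 3 levels takes up part of the variance even without an effect. The shares are therefore not sizes of effects. For Gabarapl1 the shares were 6.94% and 83.6%, for Map1lc3a 9.82% and 66.8%, for Atg5 6.62% and 66.4%, for Atg12 14.7% and 65.9%, and for Map1lc3b 11.3% and 55.2%. Becn1, Atg16l1, and Gabarap were divided more evenly, with 37.5% and 42.6%, 38.5% and 52.6%, and 44.6% and 48.6%. The siRNA share exceeded the replicate share for Atg7, with 85.3% and 2.50%, and Ulk1, with 59.6% and 16.2%. Replicate number 1 was the highest in all 3 groups for Atg12 and Map1lc3b, number 2 for Gabarap and Map1lc3a, and number 3 was the lowest for Becn1, Atg12, and Atg16l1.

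The 10 genes were set beside a wider list of 69 autophagy genes in 8 roles that contains them. Of the 69 genes, 68 were tested, and Atg9b had 0 counts in every library. In edgeR, none of the 58 tested genes outside the 10 was called with either siRNA, with or without the replicate number as a block. DESeq2 called none of them without the block and, with it, 1 gene with Chd8 siRNA, Fundc1, against 0.817% of all genes, and 0 with Tsc2 siRNA, against 0.707%. Their median log2 fold change was 0.04 with Chd8 and −0.01 with Tsc2 siRNA, and 33 and 26 of 58 were above 0. The groups did not overlap for 7 of 58 in each comparison, against 9.09% and 8.11% of all genes. With the 10 genes included, the role medians ranged from −0.06 to 0.09 with Chd8 and from −0.11 to 0.05 with Tsc2 siRNA.

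**Figure D4:**
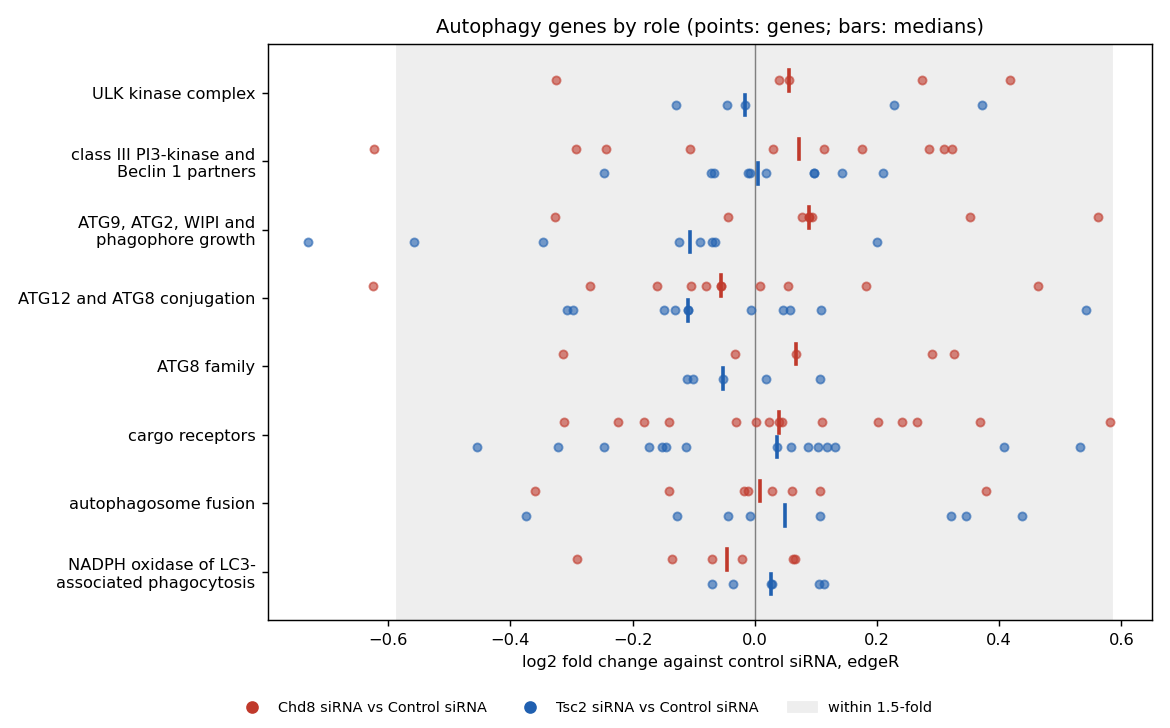
Log2 fold change against Control siRNA of the 68 tested autophagy genes (points) in 8 roles, with the median of each role as a vertical bar, for Chd8 siRNA (red) and Tsc2 siRNA (blue). The grey band marks changes within 1.5-fold, and the role medians lie between −0.11 and 0.09.

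The gene of highest mean CPM in each role outside the 10, taken without dividing by length, gives an example. In the ULK kinase complex, Rb1cc1, the FIP200 scaffold, was at 24.7 ± 3.07, 25.7 ± 2.91, and 29.0 ± 0.58 CPM (SD, n = 3) in control, Chd8, and Tsc2 siRNA libraries, with the Tsc2 libraries above control. Among the partners of Beclin 1, Vmp1, a membrane protein of the endoplasmic reticulum, was at 128.6 ± 18.3, 156.8 ± 14.9, and 142.1 ± 9.74 CPM. The groups of Vmp1 overlapped. For phagophore growth, Wdr45b, a phosphoinositide-binding protein, was at 35.7 ± 1.39, 38.0 ± 3.87, and 34.2 ± 3.31 CPM, and for conjugation Atg3, the enzyme that transfers ATG8 proteins to lipid, at 42.2 ± 10.6, 47.9 ± 3.95, and 43.9 ± 0.90 CPM. Gabarapl2, the remaining ATG8 gene of the list, was at 25.5 ± 5.94, 32.0 ± 8.51, and 24.6 ± 4.65 CPM. None of these 3 genes had groups that stood apart from control. The cargo receptor Sqstm1, which links ubiquitinated cargo to LC3, was at 2020 ± 376, 1832 ± 233, and 2104 ± 494 CPM. Rab7, a GTPase of late endosomes, was at 248.8 ± 2.14, 259.6 ± 4.496, and 247.5 ± 5.41 CPM, and Cybb, the catalytic subunit of the phagocyte NADPH oxidase, at 2535 ± 342, 2498 ± 308, and 2584 ± 458 CPM. Of these, Rab7 was above control in all Chd8 siRNA libraries, with a log2 fold change of 0.06 ± 0.10 (SE).

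At an unadjusted p under 0.05, there were 3 of the 58 genes with Chd8 siRNA, where 3.82% of all genes passed it, and 5 of 58 with Tsc2 siRNA, where 2.61% did, and they are named here after their values were seen. With both siRNAs these were Fundc1, a mitophagy receptor, Vamp8, a SNARE of autophagosome fusion, and Tecpr1, a tethering protein. Fundc1 was at 8.35 ± 0.83, 12.5 ± 1.11, and 12.1 ± 3.23 CPM, Vamp8 at 24.1 ± 3.47, 31.4 ± 1.43, and 30.6 ± 0.74 CPM, and Tecpr1 at 88.2 ± 14.1, 68.7 ± 4.71, and 68.0 ± 6.74 CPM (SD, n = 3). With Tsc2 siRNA, the cargo receptors Optn, with a log2 fold change of 0.41 ± 0.16 (SE), and Nbr1, with −0.45 ± 0.16 (SE), joined them. The comparisons of Chd8 and Tsc2 siRNA share the control libraries, and none of these genes was called by edgeR.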

How the data were processed

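Total RNA of primary microglia was sequenced in 9 libraries, 3 per siRNA. The authors quantified transcripts with Salmon 0.14.1 on mm10 and deposited estimated counts per transcript, not normalized, of which 26.8 to 32.1% per library were not whole. The annotation release is not given in the sources used here. Of 140948 transcripts, 139852 were matched by ID to GENCODE mouse release 21 (GRCm38), and the 1096 others held 0.27% of all counts. Counts were summed per gene and rounded. Genes were filtered with filterByExpr, scaled with TMM, and tested with edgeR 4.0.16 (quasi-likelihood, Benjamini-Hochberg adjustment) in R 4.3.3, with all 9 libraries in one fit and siRNA as the only factor. Single genes, on log2 CPM with a pseudocount of 0.5, and shares of counts were compared with 2-sided exact permutation tests. DESeq2 1.42.0, limma 3.58.1 (voom), the replicate block, other scalings, filters, and sums of transcripts, and each library left out in turn were alternatives. The tests were tried on simulated data.

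Replicate numbers come from the sample titles. The log2 CPM of each library, less its group's mean, was correlated across genes between libraries. It gave r = 0.34 to 0.63 in all 9 pairs of libraries with the same number and −0.46 to 0.06 between other numbers. The replicate number was therefore used as a block in alternative fits, although no source says that libraries of one number share a culture. The main fit and the exact permutation tests did not use it, so their intervals and p-values take no account of such pairs.

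The 10 genes, the wider list, and the markers were chosen with earlier results of these data known. Named are all 10 genes, every tested Becn1 transcript, the main transcript of the others, the highest other gene of each role, listed genes called with or without the block, and the 5 genes nearest to Becn1. The 5 genes of unadjusted p under 0.05, Map1lc3a-203, Map1lc3b-205, and the overlapping and copied genes were named after their values were seen.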

Additional observations from a re-analysis of the deposited data

How the results depend on the processing

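Across the alternatives, 0 of 10 genes were called in each comparison, with 1 exception: with the replicate block in DESeq2 and no fold-change threshold, 1 gene passed with Chd8 siRNA, Gabarap (adjusted p = 0.012 in DESeq2). The replicate block changed no other call of these genes. No transcript of the 10 genes was called with DESeq2, with the block, or with any library left out. The share of all transcripts called with the block or with a library left out is not given here, so nothing is drawn from those counts. The number of calls among all genes did depend on the fit, from 0 in each comparison. Without the low-count filter it was 2 for Chd8 and 1 for Tsc2 against control. DESeq2 gave 9, 6, and 5 calls for Chd8 against control, Tsc2 against control, and Tsc2 against Chd8. The replicate block gave 87, 63, and 36, with DESeq2 133, 115, and 103, with protein-coding transcripts alone 37, 24, and 7, and with the highest transcript alone 0, 0, and 0. Without the fold-change threshold the block gave 169, 104, and 61 calls, and with DESeq2 594, 297, and 314. With 1 library left out, calls stayed at 0 without the block, and with it they ranged from 20 (without control library 3) to 108, from 7 (without control library 3) to 131 (without Tsc2 library 1), and from 4 (without Chd8 library 3) to 130 (without Tsc2 library 1). Among the wider autophagy list, the block with DESeq2 called 1 gene with Chd8 siRNA, Fundc1, and without the fold-change threshold 7 genes with Chd8 (Gabarap, Fundc1, Vamp8, Vmp1, Tax1bp1, Ncf1, and Tecpr1) and 2 with Tsc2 siRNA (Optn and Tecpr1). The cause of these differences was not tested.

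Of the log2 fold changes of the 10 genes, 367 kept their sign under the settings that keep all libraries and 23 changed it, none of them called. The combinations of the block with other sums of transcripts, with a library left out, or without the fold-change threshold were chosen after seeing the data. Without scaling, Becn1 and Atg5 turned to −0.013 and −0.033 with Chd8 siRNA. Atg12 with Tsc2 siRNA turned to 0.013 without the filter, to 7.5e-05 with the block, and to 0.0029 with the block in DESeq2. With protein-coding transcripts alone, Becn1 and Atg16l1 turned to −0.14 and 0.036 with Chd8 siRNA, and Atg7 and Map1lc3a to 0.0085 and −0.18 with Tsc2 siRNA, and with the block these were −0.12, 0.033, 0.0093, and −0.045. With the highest transcript alone, Atg16l1 turned to 0.037 with Chd8 siRNA, Becn1 and Map1lc3a to −0.29 and −0.17 with Tsc2 siRNA, and Becn1 to −0.35 between Tsc2 and Chd8 siRNA. With the block and the highest transcript alone, Becn1, Atg16l1, and Gabarapl1 turned to −0.025, 0.034, and −0.017 with Chd8 siRNA, Becn1 and Map1lc3a to −0.28 and −0.031 with Tsc2 siRNA, and Becn1 to −0.26 between the knockdowns.

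With 1 library left out, with or without the block, 494 values kept their sign and 46 did not. The ranges with Chd8 siRNA were −0.015 to 0.066 for Becn1, 0.31 to 0.50 for Ulk1, −0.15 to 0.17 for Atg5, 0.34 to 0.57 for Atg7, −0.30 to 0.012 for Atg12, −0.086 to −0.015 for Atg16l1, −0.73 to 0.32 for Map1lc3a, −0.11 to 0.02 for Map1lc3b, 0.22 to 0.40 for Gabarap, and −0.10 to 0.23 for Gabarapl1. With Tsc2 siRNA they were 0.052 to 0.14 for Becn1, 0.26 to 0.54 for Ulk1, −0.31 to 0.037 for Atg5, −0.19 to −0.018 for Atg7, −0.083 to 0.13 for Atg12, −0.14 to −0.066 for Atg16l1, −0.28 to 0.65 for Map1lc3a, −0.25 to 0.018 for Map1lc3b, −0.0027 to 0.21 for Gabarap, and −0.30 to 0.17 for Gabarapl1. Between Tsc2 and Chd8 siRNA, the ranges that crossed 0 were −0.16 to 0.12 for Ulk1, −0.32 to 0.031 for Atg5, −0.0078 to 0.29 for Atg12, −0.22 to 0.0498 for Map1lc3b, and −0.37 to 0.10 for Gabarapl1.

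With 3 libraries a group and 107 to 310 counts per library for Ulk1, Atg5, Atg7, and Map1lc3a, changes of 1.5-fold lay inside most of their intervals against control, the exceptions being Atg5 with Chd8 and Atg7 with Tsc2 siRNA. A pseudocount of 2 in place of 0.5 kept every sign in the exact tests.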
